A study of Caenorhabditis elegans with 6 samples.

Results

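Nuclear hormone receptors are the largest transcription factor family of Caenorhabditis elegans. Their transcripts are described here in a sorted pair of head sensory neurons, the BAG neurons, and in other cells of the same strain. They are also described in BAG neurons with a mutation in the p38 MAP kinase gene pmk-3. The members were defined by name, with earlier results of these data known: every gene whose alias is nhr followed by a number, 283 genes, plus daf-12, unc-55, odr-7, fax-1 and sex-1. They make 288 of the 47063 gene rows of the deposited table, 283 of them protein-coding and 5 pseudogenes. Transcripts were measured by RNA sequencing of amplified cDNA in 6 libraries, 2 in each of 3 groups, all made from cells of dissociated embryos after a night in culture. The non-BAG group holds non-fluorescent cells and the wild-type BAG group fluorescent cells of strain FQ424, whose genotype is wzIs113[Pgcy-9::GFP]. The mutant BAG group holds fluorescent cells of strain FQ705, which carries pmk-3(wz31) and the same transgene. All 3 groups therefore share the transgene, in which the promoter of the guanylyl cyclase gene gcy-9 drives green fluorescent protein and defines the sorted cells; the promoter, not an independent mark, therefore decides what counts as a BAG neuron. The labels call this reporter specific to BAG and independent of pmk-3, and say that nearly all sorted cells were fluorescent on inspection.

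A nuclear hormone receptor is a transcription factor that binds DNA through a zinc-finger domain and, in most members, is controlled by a small lipophilic ligand through a second domain. A few worm receptors belong to families shared with insects and vertebrates, such as DAF-12, the receptor for the bile-acid-like dafachronic acids that decides between reproductive growth and dauer arrest. Most of the others descend from an ancestor related to vertebrate HNF4 and have no assigned ligand. In worm neurons the best known members fix cell identity: ODR-7 in the AWA olfactory neurons, FAX-1 in several interneurons and UNC-55 in a class of motor neurons.

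The recovered totals were 6181113 to 8596169 reads per library. The targeted gene pmk-3 stood at 404 and 553 (non-BAG), 671 and 585 (wild-type BAG) and 259.8 and 284 (mutant BAG). Its change between the BAG groups, -1.20 ± 0.28, was not past the threshold in limma (adjusted p = 0.0784) and was called by DESeq2; the sources used here do not say what wz31 removes. All 6 markers of BAG neurons rose in both BAG groups over non-BAG cells, with summed levels of 44317 to 57830 against 418 and 424. One of them is gcy-9, whose promoter defined the sort. It made up most of these sums, at 32105 to 45158 in the BAG libraries. The other BAG markers rose by log2 values of 3.92 to 7.26 in the wild type. Of 6 markers of body wall muscle, 5 fell in both BAG groups and the myosin gene unc-54 rose. Of 4 markers of cholinergic motor neurons 3 rose in both BAG groups (acr-2, unc-17 and cho-1), and of 3 markers of GABA motor neurons 1 rose in the wild type and 2 in the mutant. One wild-type BAG library, replicate 2, stood apart in the skin markers elt-1 and grd-10. They were 1175 and 152 there, against 240 to 365 and 3.45 to 37.2 in the other libraries. The summed level of 7 markers of hypodermis and seam was 1867 there, 661 in the other wild-type BAG library and 966 to 1257 in the other 4 libraries. Of these 7, lin-26, elt-3 and dpy-7 were not highest there, and nhr-73 is itself a member. In the same library the pharynx markers myo-2, myo-1 and tnt-4 were 542, 333 and 172, against 53, 58.5 and 43.9 in wild-type BAG replicate 1. The pharynx markers pha-4 and ceh-22 were lower there than in replicate 1. Levels throughout are normalized read counts, given for replicates 1 and 2 of each group, and changes are log2 changes ± SE on the log2(value + 1) scale, with the Benjamini-Hochberg adjusted p of limma over 14211 genes and a threshold of 0.05. Both libraries of a group may share a culture, so a p-value here speaks only of the variation among these 6 libraries, part of which may be technical. In sorted pools, fewer cells that express a gene and less RNA per cell cannot be told apart.

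Most of the family was detectable. Of the 288 members, 178 (61.8%) reached a normalized read count of 10 in at least 2 libraries and were tested, against 60.8% of the 20483 protein-coding genes in the table. The mean over the 6 libraries was at least 100.0 in 57 members, and the 10 most abundant members, nhr-49, sex-1, nhr-6, nhr-88, nhr-3, nhr-46, nhr-45, nhr-17, nhr-1 and nhr-91, held 48.6% of the family's summed level. The summed level of all members was 30612 and 29739 (non-BAG), 36334 and 34106 (wild-type BAG) and 42686 and 43788 (mutant BAG). These sums did not overlap between any pair of groups, but an exact permutation test of 2 against 2 libraries cannot give a two-sided p below 0.333. Without nhr-6 and nhr-88 the sums were 30135 and 28987, 32707 and 30564, and 36615 and 36608 in the same order, still without overlap. As a share of all recovered reads, ribosomal RNA included, the members held 0.457% and 0.563%, 0.524% and 0.552%, and 0.619% and 0.590%. On that scale the non-BAG and wild-type BAG libraries overlapped, and both mutant libraries lay above all others. The share of members tested differed by chromosome: all 29 members on the X chromosome were tested, where 70.1% of protein-coding genes were. On chromosome V, which holds 174 members, 102 were tested (58.6%, against 43.8% of its protein-coding genes), and on chromosome I 10 of 26 were (38.5%, against 72.7%). The median mean level was 172 for members on X, 66.8 on IV, 10.1 on V and 3.07 on I. Chromosomes come from the Ensembl release 115 annotation of assembly WBcel235, which may differ from the one the authors used and holds 287 of the members.

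The 15 members with clear counterpart families outside nematodes were all tested, with a median mean level of 322 against 12.3 for the other 273 members. Of these 15, 6 lie on the X chromosome. One of them rose in wild-type BAG neurons over non-BAG cells: nhr-6, the worm member of the NR4A family, which is needed to form the spermatheca. Its levels (WBGene00003605, chromosome III) were 236 and 577 (non-BAG), 2274 and 2252 (wild-type BAG) and 2927 and 3140.5 (mutant BAG). All 4 BAG libraries lay above both non-BAG libraries, a rise of 2.61 ± 0.38 (adjusted p = 0.00171, limma) in the wild type and of 3.03 ± 0.38 (adjusted p = 0.000453, limma) in the mutant, with 0.42 ± 0.38 (adjusted p = 0.64, limma) between the BAG groups. The TR2/TR4-like gene nhr-41 was 245 and 208 (non-BAG), 268 and 254 (wild-type BAG) and 471 and 488 (mutant BAG). Both mutant libraries lay above all others, and nhr-41 rose in mutant BAG neurons over non-BAG cells by 1.08 ± 0.27 (adjusted p = 0.0165, limma). The tailless-like gene nhr-67, a regulator of neuronal and uterine development, was 349.8 and 831 (non-BAG), 280.5 and 375 (wild-type BAG) and 219.9 and 182 (mutant BAG). It fell in mutant BAG neurons against non-BAG cells (limma adjusted p = 0.0289), by a log2 value of -1.43 ± 0.40. The calls of nhr-41 and nhr-67 were lost without mutant BAG replicate 1, mutant BAG replicate 2 or non-BAG replicate 2, and nhr-67 was also called lower in the wild type without non-BAG replicate 1. In wild-type BAG against non-BAG limma called 0 of the 15 lower, with 3 below at an unadjusted p under 0.05, 0 lower by edgeR and 1 by DESeq2. In mutant against wild-type BAG neurons limma called 0 of the 15; at an unadjusted p under 0.05 there were 2 above and 0 below, and edgeR and DESeq2 called 0.

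**Figure D1:**
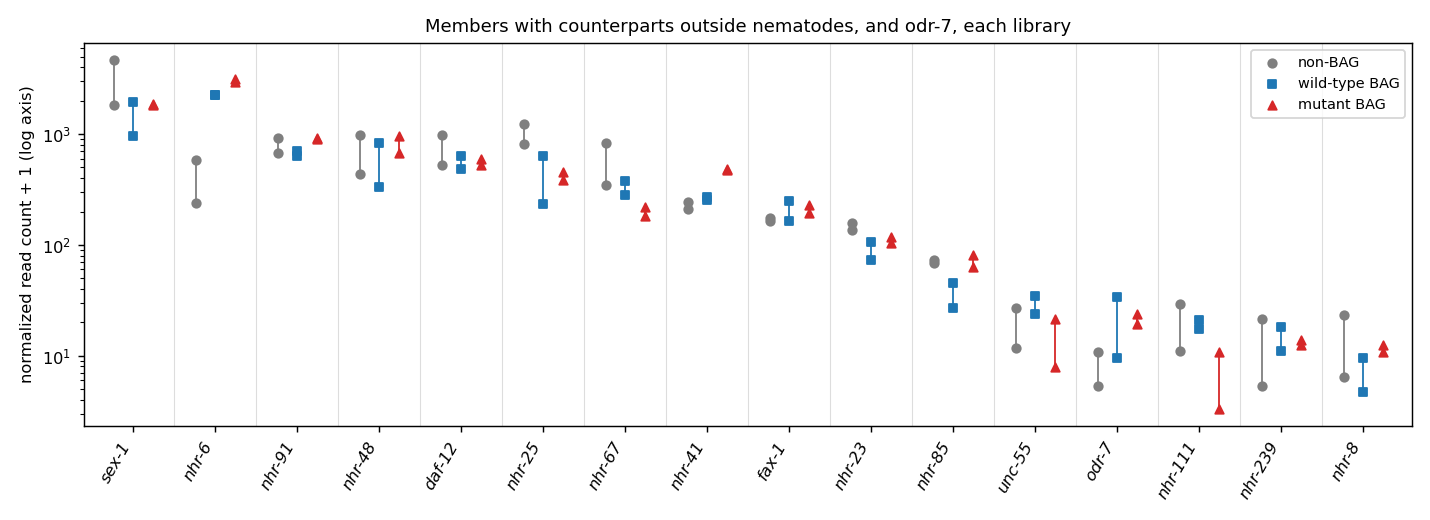
Normalized read count plus 1 (log axis) of the 15 members with counterpart families outside nematodes and of odr-7, in order of mean level; each point is 1 library and the line joins the 2 libraries of a group. For nhr-6 the BAG libraries stand at 2252 to 3140.5 and the non-BAG libraries at 236 and 577, and nhr-41 is highest in both mutant libraries, at 471 and 488.

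The 5 members known by other names did not pass in any of the 3 comparisons by limma, edgeR or DESeq2; at an unadjusted p under 0.05, 1 was below in wild-type BAG against non-BAG and 0 in the others. The X-chromosome counting gene sex-1, which represses the male switch gene xol-1, was 4654 and 1822 (non-BAG), 1966 and 956 (wild-type BAG) and 1838 and 1885 (mutant BAG). Its non-BAG libraries were far apart, and wild-type BAG against non-BAG gave -1.09 ± 0.46 (adjusted p = 0.157, limma); without non-BAG replicate 2 it was called lower in wild-type and mutant BAG neurons (adjusted p = 0.0122 and 0.035). For daf-12 the levels were 527 and 982 (non-BAG), 488 and 639 (wild-type BAG) and 593 and 527 (mutant BAG), with overlap between all groups and -0.37 ± 0.33 (adjusted p = 0.526, limma) in wild-type BAG against non-BAG. The interneuron identity gene fax-1 was 164 and 174 (non-BAG), 250.3 and 164 (wild-type BAG) and 227 and 192 (mutant BAG); the mutant libraries lay above the non-BAG libraries and the wild-type BAG libraries spanned both. Low levels were found for unc-55, 10.8 and 26 (non-BAG), 33.8 and 23 (wild-type BAG) and 20.5 and 6.9 (mutant BAG), and for odr-7, 9.75 and 4.34 (non-BAG), 32.9 and 8.62 (wild-type BAG) and 22.6 and 18.4 (mutant BAG). The change of odr-7 in mutant BAG neurons over non-BAG cells was 1.5 ± 0.76 (adjusted p = 0.176, limma), with both mutant libraries above both non-BAG libraries. Exons of unc-55 overlap those of the opposite-strand gene F55D12.6, and no use of strand in counting is stated, which leaves its level uncertain. Among the other conserved members, the GCNF-like gene nhr-91 was 913 and 670.1 (non-BAG), 630.4 and 705 (wild-type BAG) and 914 and 899 (mutant BAG), with both mutant libraries above both wild-type BAG libraries and 0.44 ± 0.26 (adjusted p = 0.453, limma) between them. The relatives of daf-12 were far apart in level, with nhr-48 at 333 to 976 and nhr-8, which acts in sterol and toxin handling, at 3.65 to 22.3 over the 6 libraries. The Rev-erb, molting and skin receptors came out lower in the wild-type BAG libraries without passing the test. The SF-1-like gene nhr-25, which acts in skin and gonad, was 1241 and 807 (non-BAG), 235 and 636 (wild-type BAG) and 453 and 382 (mutant BAG). The higher of its wild-type BAG libraries was the one with high elt-1 and grd-10. It gave -1.37 ± 0.44 (adjusted p = 0.0702, limma) in wild-type BAG against non-BAG, and was called lower there without non-BAG replicate 2 (adjusted p = 0.0433) or, at -2.09, without wild-type BAG replicate 2 (adjusted p = 0.00848). The ROR-like molting regulator nhr-23 was 134 and 158 (non-BAG), 72.2 and 106 (wild-type BAG) and 116 and 104 (mutant BAG), with -0.73 ± 0.34 (adjusted p = 0.201, limma) in the same comparison. The Rev-erb-like gene nhr-85 was 71.5 and 67.6 (non-BAG), 43.9 and 25.9 (wild-type BAG) and 80.8 and 62.1 (mutant BAG). The wild-type BAG libraries lay below all others, with -1.02 ± 0.42 (adjusted p = 0.144, limma) against non-BAG and 1.05 ± 0.42 (adjusted p = 0.262, limma) in mutant against wild-type BAG. Of its exon bases 33.2% overlap the opposite-strand gene npr-14, which leaves its level uncertain too.

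To compare genes with each other, levels were divided by exon length in the same annotation. Per kilobase of exon, the most abundant member in wild-type BAG neurons was nhr-49, an HNF4-related regulator of fat metabolism that serves the worm much as PPAR alpha serves vertebrates, at 1972 (libraries 1728 and 2215) normalized reads. The next were nhr-3 at 1191 (libraries 1160.4 and 1222), nhr-6 at 906 (libraries 901 and 910.3), nhr-45 at 899.7 (libraries 849 and 950.2) and sex-1 at 769.8 (libraries 504 and 1036). The libraries of nhr-49 lay above those of nhr-3, and those of nhr-3 above those of nhr-6, while nhr-6, nhr-45 and sex-1 overlapped. The next member, nhr-17 at 639 (libraries 498 and 780), overlapped sex-1. In mutant BAG neurons nhr-49 was again first, at 1950.2 (libraries 1927 and 1973). It was followed by nhr-6 at 1214 (libraries 1172 and 1257) and nhr-88 at 1142 (libraries 999.8 and 1284), which overlapped each other. After them came nhr-17 at 1013 (libraries 886 and 1141), which overlapped nhr-88. Unscaled for length, nhr-49 was 4956 and 4909.8 (non-BAG), 4724 and 3687 (wild-type BAG) and 4208 and 4111 (mutant BAG), and wild-type BAG against non-BAG gave -0.24 ± 0.26 (adjusted p = 0.604, limma). Of its relatives in lipid metabolism, nhr-80, a regulator of fatty acid desaturation, had no read in any library, and nhr-13 was 23.8 and 14.9 (non-BAG), 19.2 and 23 (wild-type BAG) and 36.7 and 14.9 (mutant BAG). The hypoxia-responsive gene nhr-57 was 296 and 423 (non-BAG), 224 and 390.0 (wild-type BAG) and 368 and 368 (mutant BAG), with overlap between the groups. For nhr-64, another fat regulator, the levels were 81.2 and 62 (non-BAG), 47.5 and 21.5 (wild-type BAG) and 30.2 and 44.8 (mutant BAG), and wild-type BAG against non-BAG gave -1.12 ± 0.50 (adjusted p = 0.174, limma). Of the 9 HNF4-related members with studied roles, 8 were tested: nhr-66 and nhr-86 rose and nhr-69 and nhr-2 fell in both BAG groups over non-BAG cells. Between the BAG groups limma, edgeR and DESeq2 called 0 of the 8, with 0 above and 1 below at an unadjusted p under 0.05.

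The comparison of wild-type BAG neurons with non-BAG cells asks which receptors mark the sorted neuron. Of 178 tested members 19 rose and 3 fell, which is 10.7% and 1.69%, where 10.2% of all 14211 tested genes rose and 4.01% fell. The median change of the members was 0.27, that of all tested genes -0.04. The share that rose was near the background. Among the 163 tested members outside the conserved group 18 rose and 3 fell. With only the groups compared in the fit 10 members rose, and DESeq2 called 5 lower. The main fit does not pair libraries by replicate number, since the labels name no shared culture. With a replicate block 29 members rose and 6 fell. The most abundant of the 18 was nhr-88 (WBGene00003678, chromosome II), with 240.4 and 175 (non-BAG), 1353 and 1289.9 (wild-type BAG) and 3144 and 4039 (mutant BAG). Its 3 groups did not overlap and it rose in wild-type BAG neurons by 2.68 ± 0.27 (adjusted p = 0.000215, limma). The gene nhr-47 was 271 and 188 (non-BAG), 1019 and 879 (wild-type BAG) and 846 and 962 (mutant BAG). It rose by 2.06 ± 0.28 (adjusted p = 0.00113, limma), and its BAG groups overlapped each other. For nhr-116 the levels were 19.5 and 21.1 (non-BAG), 219 and 124 (wild-type BAG) and 175 and 147 (mutant BAG), a rise of 2.97 ± 0.39 (adjusted p = 0.000886, limma) with both BAG groups far above the non-BAG libraries. The gene nhr-214 was 49.8 and 57.7 (non-BAG), 231 and 226 (wild-type BAG) and 223 and 171 (mutant BAG). It rose by 2.07 ± 0.31 (adjusted p = 0.00221, limma), and its exons share 5.45% of their bases with nhr-26, at 108% of its own mean level, and 4.31% with nhr-215, both on the same strand, so its level is uncertain. The gene nhr-86, which in the intestine acts in defence against pathogens, was 60.6 and 32.2 (non-BAG), 182 and 166 (wild-type BAG) and 143 and 239.2 (mutant BAG). It rose by 1.95 ± 0.41 (adjusted p = 0.0118, limma). The gene nhr-66, a partner of NHR-49 in lipid gene control, was 231 and 189.7 (non-BAG), 563 and 450.3 (wild-type BAG) and 614 and 589 (mutant BAG) and rose by 1.26 ± 0.27 (adjusted p = 0.0134, limma). The exons of nhr-4, nhr-17, nhr-47, nhr-66 and nhr-86 overlap those of another gene with at least 10% of their own level, so these levels are uncertain as well, as are those of nhr-8, nhr-57, nhr-91 and nhr-136.

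Several of the large rises were at low levels. The gene nhr-159 had 2 reads in the non-BAG libraries together, at 0 and 1.24 (non-BAG), 38.4 and 12.2 (wild-type BAG) and 66.8 and 114 (mutant BAG), so that its level in wild-type BAG neurons was 30.1 times that of non-BAG cells with a 95% counting interval of 7.97 to 254. For nhr-184 the levels were 1.08 and 14.9 (non-BAG), 65.8 and 91.2 (wild-type BAG) and 16.2 and 19.5 (mutant BAG). The wild-type BAG libraries were the highest, with a rise of 3.77 ± 0.86 (adjusted p = 0.0174, limma), which was 2.31 without non-BAG replicate 1. The gene nhr-258 was 7.58 and 2.48 (non-BAG), 28.3 and 28.7 (wild-type BAG) and 75.5 and 78.2 (mutant BAG) and nhr-277 was 7.58 and 10.5 (non-BAG), 51.2 and 35.9 (wild-type BAG) and 248 and 322 (mutant BAG). In both the 3 groups stood in the order non-BAG, wild-type BAG, mutant BAG without overlap, with rises of 2.43 ± 0.58 (adjusted p = 0.0206, limma) and 2.14 ± 0.42 (adjusted p = 0.00847, limma) in the wild type. The other 8 that rose were nhr-36, nhr-71, nhr-105, nhr-138, nhr-17, nhr-4, nhr-183 and nhr-50, with changes from 1.20 ± 0.33 for nhr-50 to 1.91 ± 0.46 for nhr-36.

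The members that fell were nhr-69, nhr-146 and nhr-2. The gene nhr-69, reported to act with the SMAD protein DAF-8 in a head sensory neuron to hold down the potassium channel gene exp-2, was 120.2 and 79.4 (non-BAG), 15.5 and 18 (wild-type BAG) and 3.23 and 6.9 (mutant BAG). Each group lay below the one before it, and nhr-69 fell by a log2 value of -2.48 ± 0.56 in wild-type BAG neurons (limma adjusted p = 0.0174). Its exons overlap those of the innexin gene inx-20, which lies on the opposite strand, over 2.69% of their bases and has 65.3% of its mean level, which leaves the level uncertain. The gene nhr-146 was 178 and 245 (non-BAG), 74.9 and 72.5 (wild-type BAG) and 78.7 and 50.6 (mutant BAG), a change of -1.49 ± 0.37 (adjusted p = 0.0244, limma). For nhr-2, an embryonic gene, the levels were 187 and 120.3 (non-BAG), 61.2 and 46.7 (wild-type BAG) and 48.5 and 62.1 (mutant BAG), a change of -1.47 ± 0.39 (adjusted p = 0.0332, limma).

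**Figure D2:**
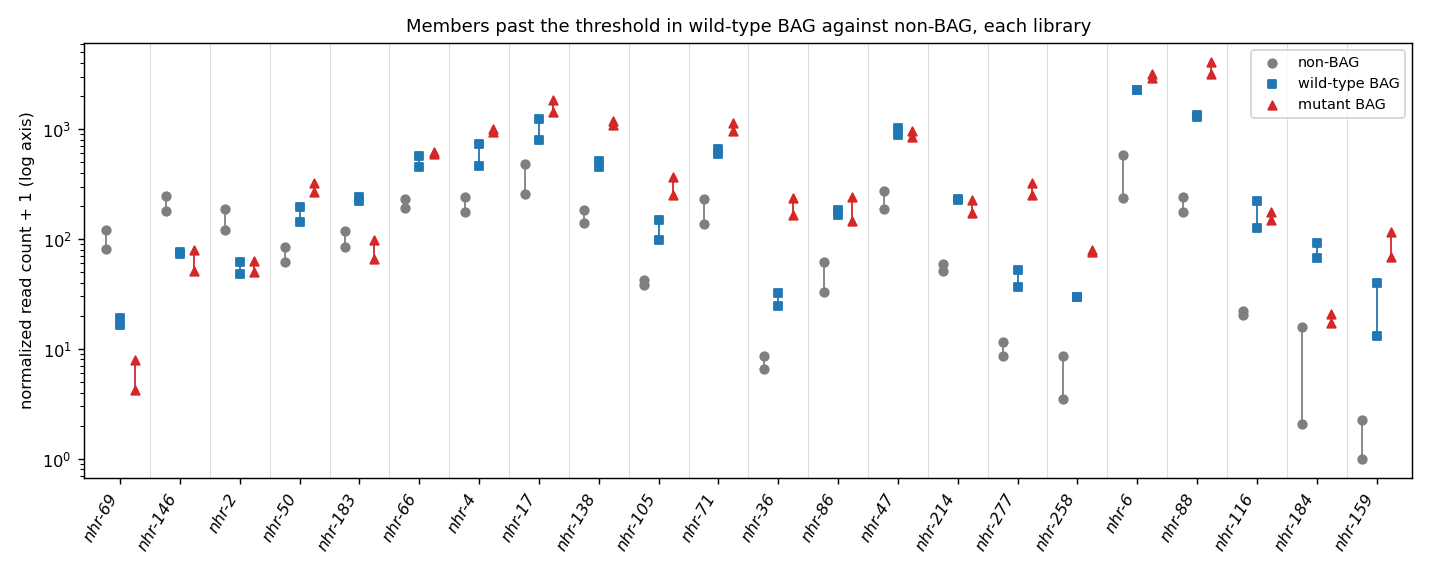
Normalized read count plus 1 (log axis) of the 22 members past the threshold in wild-type BAG against non-BAG, ordered by log2 change; each point is 1 library and lines join the 2 libraries of a group. In 19 members the wild-type BAG libraries lie above the non-BAG libraries, and nhr-88 and nhr-277 are higher again in both mutant libraries.

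Of these 22 calls, 7 held in every fit that left out 1 library, those of nhr-6, nhr-47, nhr-71, nhr-88, nhr-116, nhr-138 and nhr-214. Without wild-type BAG replicate 1 the call was lost for nhr-105, nhr-146, nhr-159, nhr-17, nhr-183, nhr-184, nhr-2, nhr-258, nhr-277, nhr-36, nhr-4, nhr-50, nhr-66, nhr-69 and nhr-86 (adjusted p 0.0582 to 0.216), leaving 7 members higher. Without wild-type BAG replicate 2, the library with high elt-1 and grd-10, it was lost for nhr-146, nhr-183, nhr-184, nhr-2, nhr-258, nhr-36, nhr-50 and nhr-69. Without non-BAG replicate 1 it was lost for nhr-105, nhr-183, nhr-2, nhr-50 and nhr-69 (adjusted p 0.0503 to 0.162) and without non-BAG replicate 2 for nhr-146, nhr-17 and nhr-258 (adjusted p 0.0514 to 0.087). Without either mutant library, which enters this comparison only through the estimate of spread, it was lost for nhr-17, nhr-183, nhr-2, nhr-258, nhr-36 and nhr-50 (adjusted p 0.059 to 0.0976). Calls were gained without non-BAG replicate 1 for nhr-1, nhr-100, nhr-124, nhr-135, nhr-14, nhr-143 and nhr-67 (adjusted p 0.00276 to 0.0485), and without non-BAG replicate 2 for nhr-126, nhr-128, nhr-157, nhr-167, nhr-178, nhr-231, nhr-25, nhr-35, nhr-62, nhr-79 and sex-1 (adjusted p 0.00925 to 0.0433).

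The comparison of mutant with wild-type BAG neurons asks which receptor transcripts differ between the BAG groups. An effect of pmk-3 cannot be told apart from other differences between the strains, cultures or sorts. By limma 3 of the 178 tested members passed: nhr-36 and nhr-277 rose and nhr-56 fell. The number depended on the method: edgeR called 5 higher and 1 lower, DESeq2 15 and 5, and limma 15 and 6 with only the groups compared in the fit and 8 and 1 with a pseudocount of 8. The 3 limma calls are 1.12% higher and 0.562% lower, where 0.486% of all tested genes rose and 0.352% fell. The gene nhr-277 (WBGene00022374, chromosome IV), given above, was 248 and 322 in the mutant against 51.2 and 35.9 in the wild type, a rise of 2.69 ± 0.42 (adjusted p = 0.0301, limma). The gene nhr-36 (WBGene00017198, chromosome V) was 7.58 and 5.58 (non-BAG), 31.1 and 23.7 (wild-type BAG) and 163 and 236 (mutant BAG), a rise of 2.81 ± 0.46 (adjusted p = 0.0301, limma) in the mutant over the wild type. For nhr-56 (WBGene00003646, chromosome V) the levels were 79.1 and 58.9 (non-BAG), 169 and 148 (wild-type BAG) and 38.8 and 20.7 (mutant BAG). Both mutant libraries lay below all others, and nhr-56 fell by a log2 value of -2.44 ± 0.42 (limma adjusted p = 0.0372). These 3 calls were lost without either wild-type BAG library or either mutant library, with adjusted p 0.0987 to 0.511. With non-BAG replicate 1 left out, limma also called nhr-100, nhr-135, nhr-138, nhr-174, nhr-183, nhr-184, nhr-186, nhr-21, nhr-216, nhr-274, nhr-40 and nhr-88 (adjusted p 0.015 to 0.0499), and with non-BAG replicate 2 left out nhr-100, nhr-124, nhr-135, nhr-138, nhr-174, nhr-18, nhr-183, nhr-186, nhr-21, nhr-216, nhr-274, nhr-286, nhr-40 and nhr-88 (adjusted p 0.0125 to 0.047). The non-BAG libraries enter this comparison only through the estimate of spread. The median change of the members was 0.16 and that of all tested genes 0.02; under TMM scaling these were 0.26 and 0.12, with 4 members higher and 1 lower, and with 92 of all genes called higher and 43 lower in place of 69 and 50.

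Beyond the calls, 57 of the 178 tested members had both mutant libraries above both wild-type BAG libraries, 32.0% against 26.0% of all tested genes, and 31 had both below, 17.4% against 24.3%. A stepwise order, with wild-type BAG above non-BAG and mutant above wild-type BAG and no overlap, was seen in 26 members, 14.6% against 10.7% of all tested genes. Besides nhr-6, the most abundant of them over the 6 libraries was nhr-88, whose value in mutant against wild-type BAG neurons, 1.43 ± 0.27 (adjusted p = 0.0512, limma), just missed the threshold. The gene nhr-138 was 183 and 139 (non-BAG), 513 and 447 (wild-type BAG) and 1192 and 1092 (mutant BAG), with 1.25 ± 0.27 (adjusted p = 0.0709, limma) between the BAG groups. The gene nhr-100 was 55.2 and 31 (non-BAG), 95 and 95.5 (wild-type BAG) and 318 and 316 (mutant BAG), with 1.72 ± 0.36 (adjusted p = 0.0671, limma). The reverse, with wild-type BAG above both other groups, was seen in 12 members, 6.74% against 7.59% of all tested genes, among them nhr-56, nhr-183 and nhr-184. A stepwise fall was seen in 4 members (nhr-69, nhr-104, nhr-136 and nhr-153), 2.25% against 5.43%. Markers of some other neurons also had higher summed levels in the mutant than in the wild-type BAG libraries, although limma called 0 of the 10 tested of these 12 between the BAG groups (5 above and 0 below at an unadjusted p under 0.05; edgeR called 0 and DESeq2 2) and none was at 0 in all libraries. The 4 markers of cholinergic motor neurons summed to 1037 and 815 against 597 and 496, the 3 of GABA motor neurons to 1004 and 681 against 526 and 300.2, the 2 of AVK, almost all of it flp-1, to 831 and 1234 against 407 and 171, and the 3 of AWA to 26.9 and 43.7 against 5.48 and 15.8. The 6 BAG markers summed to 47480 and 57830 against 44317 and 48718, most of it gcy-9. Between the BAG groups limma called 0 of these 6, and edgeR and DESeq2 each called 1 higher. At an unadjusted p under 0.05, 1 was above and 0 below. The BAG marker flp-17 was 882 and 1466 in the mutant against 167 and 292 in the wild type, a log2 value of 2.36 (adjusted p = 0.0567, limma). The part of the other neurons in the receptor values was not tested.

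**Figure D3:**
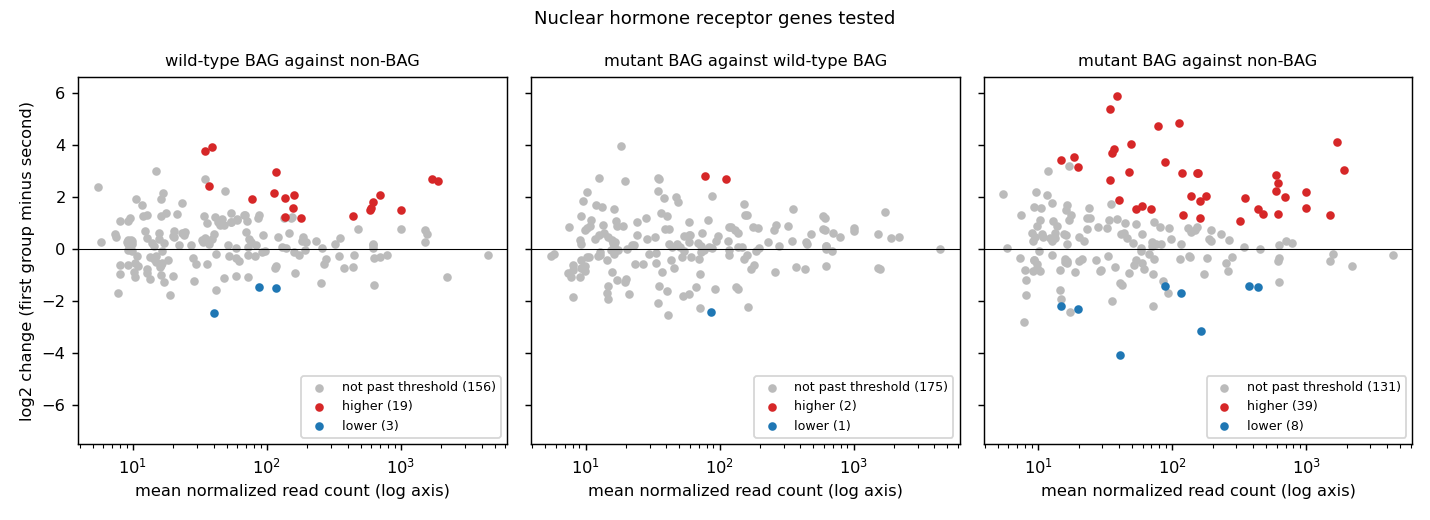
Log2 change against mean normalized read count over the 6 libraries (log axis) for the 178 tested members in the 3 comparisons; red points rose and blue points fell at a limma adjusted p under 0.05. The counts are 19 and 3, 2 and 1, and 39 and 8.

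Many members lie beside each other in the genome. Counting protein-coding genes only, 134 members formed 43 runs of adjacent members, the longest of 9. In 23 runs at least 2 members were tested, and in 12 of these all tested members changed in 1 direction, by the sign of the value alone, between mutant and wild-type BAG neurons. Of these 12 runs 10 were among the 14 with only 2 tested members, which share a sign easily, and 2 among the 9 with more. Of all members, only nhr-36, nhr-277 and nhr-56 passed the test in this comparison. The runs described next were chosen after their values were seen, so they have no test. A run of 7 on chromosome V, in the order nhr-56, nhr-128, nhr-103, nhr-18, nhr-126, nhr-134 and nhr-96, had all its members tested. In all 7 both wild-type BAG libraries lay above both non-BAG libraries, and in all 7 the mutant value was below the wild type, by log2 values of -2.44 to -0.10. In 5 of them both mutant libraries lay below both wild-type libraries, where 24.3% of all tested genes did. The share of all tested genes with wild-type BAG above non-BAG without overlap was not counted. Besides nhr-56, nhr-128 was 69.3 and 130.2 (non-BAG), 207 and 229 (wild-type BAG) and 105 and 58.6 (mutant BAG). Similarly nhr-103 was 44.4 and 46.5 (non-BAG), 94.1 and 136 (wild-type BAG) and 36.7 and 43.7 (mutant BAG), and nhr-18 was 31.4 and 42.8 (non-BAG), 101 and 91.2 (wild-type BAG) and 34.5 and 20.7 (mutant BAG). In nhr-128 and nhr-18 the mutant libraries overlapped the non-BAG libraries, and in nhr-103 they lay just below them. The value in mutant against wild-type BAG neurons was -1.81 ± 0.44 (adjusted p = 0.0887, limma) for nhr-18 and -1.48 ± 0.39 (adjusted p = 0.109, limma) for nhr-103. By contrast nhr-134 and nhr-96, at the other end of the run, overlapped between the BAG groups. The levels of nhr-134 were 29.2 and 34.1 (non-BAG), 64.9 and 68.2 (wild-type BAG) and 50.7 and 75.9 (mutant BAG).

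A second run on chromosome V, of 9 members from nhr-185 to nhr-124, had 6 tested members and the opposite sign in 5 of them. In it nhr-159, nhr-158, nhr-186 and nhr-124 had both mutant libraries above both wild-type BAG libraries, where 26.0% of all tested genes did. The gene nhr-186 was 5.41 and 5.58 (non-BAG), 16.4 and 8.62 (wild-type BAG) and 57.1 and 119.6 (mutant BAG). The gene nhr-124 was 18.4 and 1.24 (non-BAG), 36.5 and 23.7 (wild-type BAG) and 98.1 and 115 (mutant BAG). A pair on the same chromosome, nhr-286 and nhr-135, were both above the wild type in the mutant: nhr-286 was 13 and 11.8 (non-BAG), 23.8 and 25.1 (wild-type BAG) and 74.4 and 138 (mutant BAG) and nhr-135 was 30.3 and 10.5 (non-BAG), 44.8 and 48.1 (wild-type BAG) and 161 and 233 (mutant BAG). Their values in mutant against wild-type BAG neurons were 2.01 ± 0.48 (adjusted p = 0.0876, limma) and 2.04 ± 0.51 (adjusted p = 0.0998, limma). Adjacent family members can be recent copies of each other, and whether reads were split between near-identical copies was not tested, since no sequences were compared.

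**Figure D4:**
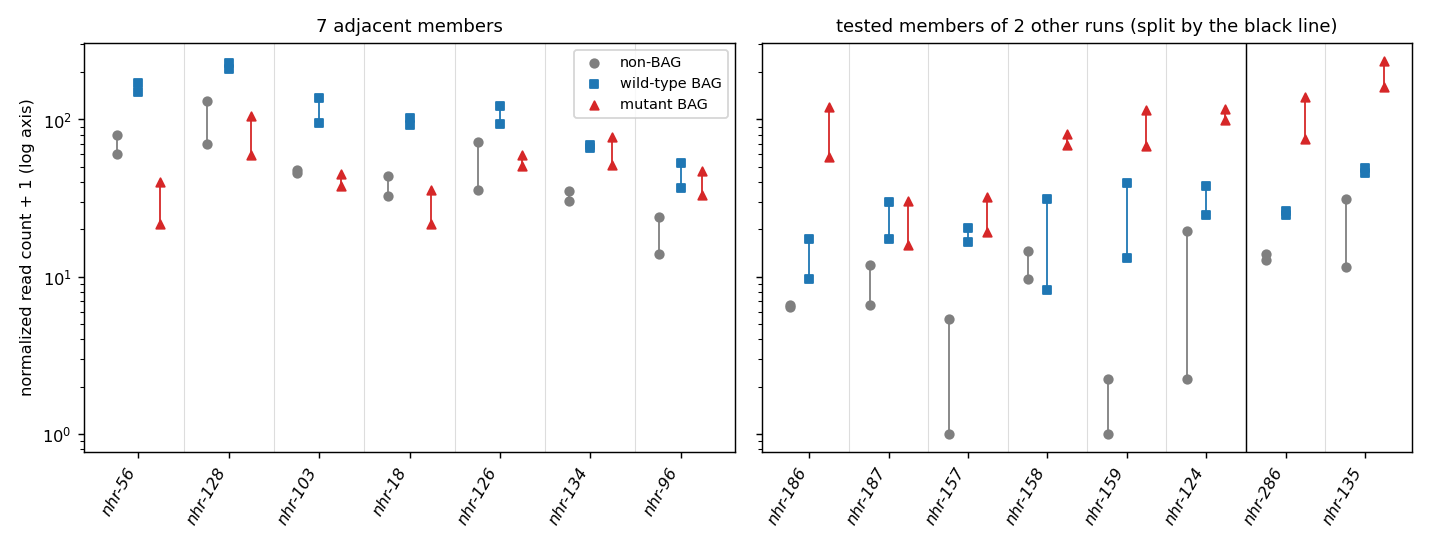
Normalized read count plus 1 (log axis) in each library for a run of 7 adjacent members on chromosome V (left, in genome order) and for the tested members of 2 other runs on the same chromosome (right, split by a black line); lines join the 2 libraries of a group. In the left panel the wild-type BAG libraries are above the non-BAG libraries in all 7 genes, and for nhr-56 the mutant libraries fall to 38.8 and 20.7. The runs were chosen after their values were seen, and the share of all tested genes with wild-type BAG above non-BAG was not counted.

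Against the same non-BAG libraries, 39 of the 178 tested members rose in mutant BAG neurons and 8 fell, 21.9% and 4.49%, where 16.2% of all tested genes rose and 9.34% fell. The 2 BAG groups were compared with the same non-BAG libraries, so their counts are not independent; of the 19 members that rose in the wild type 17 were also among the 39. The exceptions were nhr-183 and nhr-184. The gene nhr-183 was 83.4 and 116 (non-BAG), 219 and 241 (wild-type BAG) and 95.9 and 64.4 (mutant BAG), so that the mutant libraries overlapped those of non-BAG cells. In nhr-184, given above, the mutant libraries were 16.2 and 19.5. Among members that rose in this comparison and not in the wild type, nhr-167 was 0 and 3.1 (non-BAG), 6.4 and 21.5 (wild-type BAG) and 60.4 and 116 (mutant BAG), a rise of 5.39 ± 0.88 (adjusted p = 0.00208, limma). The gene nhr-225 was 3.25 and 6.2 (non-BAG), 8.22 and 5.75 (wild-type BAG) and 51.7 and 43.7 (mutant BAG), a rise of 3.13 ± 0.65 (adjusted p = 0.00709, limma) with the wild-type BAG libraries overlapping the non-BAG libraries. The gene nhr-216 was 9.75 and 0.62 (non-BAG), 4.57 and 0.718 (wild-type BAG) and 44.2 and 50.6 (mutant BAG), a rise of 3.53 ± 1.03 (adjusted p = 0.0332, limma). The gene nhr-157 was 0 and 4.34 (non-BAG), 15.5 and 19.4 (wild-type BAG) and 18.3 and 31 (mutant BAG), a rise of 3.43 ± 0.89 (adjusted p = 0.0204, limma) with the 2 BAG groups overlapping. Among genes with described roles, nhr-40, needed for muscle development, was 358 and 432 (non-BAG), 481 and 401 (wild-type BAG) and 896 and 1121 (mutant BAG) and rose by 1.35 ± 0.27 (adjusted p = 0.0062, limma). The excretory canal gene nhr-31 was 257 and 286 (non-BAG), 377 and 576 (wild-type BAG) and 758 and 623 (mutant BAG) and rose by 1.34 ± 0.30 (adjusted p = 0.00977, limma). Large changes were those of nhr-277 and nhr-36, at 4.83 ± 0.42 and 4.71 ± 0.46, and that of nhr-88, at 4.11 ± 0.27 (adjusted p = 1.13e-05, limma). For nhr-159 the mutant level was 114 times that of non-BAG cells with a 95% counting interval of 30.9 to 946. The rises of nhr-124, nhr-258 and nhr-186 were 4.02 ± 0.87, 3.83 ± 0.58 and 3.69 ± 0.61, and without non-BAG replicate 2 that of nhr-124 was 2.47.

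The members that fell in mutant BAG neurons against non-BAG cells were nhr-69, nhr-146 and nhr-2, which also fell in the wild type, and nhr-174, nhr-153, nhr-272, nhr-154 and nhr-67. The gene nhr-69 fell by a log2 value of -4.09 ± 0.56 (limma adjusted p = 0.000784). The gene nhr-174 was 125 and 506 (non-BAG), 83.1 and 205 (wild-type BAG) and 42 and 17.2 (mutant BAG), where replicate 2 was the higher library in both wild-type groups, and it fell by a log2 value of -3.17 ± 0.70 (limma adjusted p = 0.00958). The adjacent genes nhr-153 and nhr-154 fell as well: nhr-153 was 29.2 and 42.8 (non-BAG), 15.5 and 18 (wild-type BAG) and 8.62 and 4.6 (mutant BAG) and nhr-154 was 444 and 892 (non-BAG), 276 and 550.1 (wild-type BAG) and 226 and 228 (mutant BAG), changes of -2.31 ± 0.60 (adjusted p = 0.02, limma) and -1.47 ± 0.41 (adjusted p = 0.0285, limma). The gene nhr-272 was 14.1 and 31.6 (non-BAG), 19.2 and 15.8 (wild-type BAG) and 4.31 and 3.45 (mutant BAG), a change of -2.19 ± 0.67 (adjusted p = 0.0403, limma). The other members that rose had changes from 1.08 for nhr-41 upward. Of the 47 calls in this comparison 21 held in every fit that left out 1 library, those of nhr-69 among the members that fell and of nhr-4, nhr-6, nhr-17, nhr-21, nhr-36, nhr-47, nhr-50, nhr-66, nhr-71, nhr-88, nhr-100, nhr-105, nhr-116, nhr-135, nhr-138, nhr-159, nhr-167, nhr-214, nhr-258 and nhr-277 among those that rose. Without mutant BAG replicate 2 the call was lost for nhr-1, nhr-124, nhr-143, nhr-146, nhr-153, nhr-154, nhr-157, nhr-158, nhr-174, nhr-186, nhr-2, nhr-216, nhr-225, nhr-236, nhr-237, nhr-272, nhr-274, nhr-286, nhr-31, nhr-40, nhr-41, nhr-46, nhr-67, nhr-78, nhr-86 and nhr-95 (adjusted p 0.0506 to 0.186). Without mutant BAG replicate 1 it was lost for nhr-1, nhr-124, nhr-143, nhr-154, nhr-157, nhr-158, nhr-2, nhr-216, nhr-225, nhr-236, nhr-237, nhr-272, nhr-274, nhr-31, nhr-41, nhr-46, nhr-67, nhr-78 and nhr-95 (adjusted p 0.052 to 0.277). Without non-BAG replicate 1 it was lost for nhr-157, nhr-158, nhr-2, nhr-237 and nhr-78 (adjusted p 0.0595 to 0.115) and without non-BAG replicate 2 for nhr-143, nhr-153, nhr-154, nhr-216, nhr-236, nhr-272, nhr-274, nhr-41, nhr-46 and nhr-67 (adjusted p 0.0507 to 0.229). Without either wild-type BAG library it was lost for nhr-272 (adjusted p 0.0508 and 0.0556). Calls were gained without non-BAG replicate 1 for nhr-102, nhr-112, nhr-12, nhr-14, nhr-178, nhr-232, nhr-45 and nhr-70 (adjusted p 0.00673 to 0.0477), without non-BAG replicate 2 for nhr-184, nhr-213, nhr-25, nhr-79 and sex-1 (adjusted p 0.00697 to 0.0483), without mutant BAG replicate 1 for nhr-136 (adjusted p = 0.0194), without wild-type BAG replicate 1 for nhr-25 (adjusted p = 0.0164) and without wild-type BAG replicate 2 for nhr-112 and nhr-25 (adjusted p 0.016 to 0.0496).

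Ligand supply, coregulators and known targets of the receptors were followed in 6 lists of 50 genes in all, of which 45 were tested. The lists were drawn up by role, with earlier results of these data known. The genes flp-1 and odr-10 in them are also used here as markers of AVK and AWA. In wild-type BAG neurons over non-BAG cells 4 of the 45 rose and 0 fell (5 and 5 at an unadjusted p under 0.05; edgeR called 4 and 1, DESeq2 5 and 3), where 10.2% of all tested genes rose and 4.01% fell. In mutant BAG neurons over non-BAG cells 7 of the 45 rose and 1 fell, where 16.2% of all tested genes rose and 9.34% fell. The shares that rose were near the background. The median change of the 45 was -0.10, 0.21 and -0.05 in wild-type BAG against non-BAG, mutant against wild-type BAG and mutant BAG against non-BAG, beside -0.04, 0.02 and -0.09 over all tested genes. Between the BAG groups limma and edgeR called 0, DESeq2 called 2 higher, and 5 were above and 2 below at an unadjusted p under 0.05. Among 6 tested genes of dafachronic acid synthesis and sterol transport the one that rose was ncr-1, a worm counterpart of the NPC1 cholesterol transporter. It was 232 and 255 (non-BAG), 1718 and 1412 (wild-type BAG) and 728 and 1044 (mutant BAG), a rise of 2.68 ± 0.28 (adjusted p = 0.000244, limma) in the wild type and of 1.84 ± 0.28 (adjusted p = 0.0014, limma) in the mutant, where both libraries lay below both wild-type libraries and the difference of -0.84 ± 0.28 (adjusted p = 0.19, limma) did not pass. The cytochrome P450 gene daf-9, which makes the last step to dafachronic acid, was 6.5 and 37.8 (non-BAG), 10.1 and 23 (wild-type BAG) and 14 and 13.8 (mutant BAG), with overlap between the groups. Among 12 coregulator genes mdt-15 rose, a Mediator subunit that binds NHR-49 to switch on fatty acid genes. Its levels were 1085 and 944 (non-BAG), 6798 and 5682 (wild-type BAG) and 5589 and 6378 (mutant BAG), and all 4 BAG libraries lay far above the non-BAG libraries, a rise of 2.62 ± 0.26 (adjusted p = 0.000184, limma) and of 2.56 ± 0.26 (adjusted p = 0.000127, limma) in the wild type and the mutant. Its partner nhr-49 had no such difference, as given above. The DAF-12 corepressor gene din-1 was 11682 and 4873 (non-BAG), 9528 and 5229 (wild-type BAG) and 7819.7 and 9122 (mutant BAG), with overlap.

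By limma 0 of 6 tested fat metabolism targets of NHR-49 passed in any comparison. In wild-type BAG against non-BAG their median was -0.61, with 0 above and 3 below at an unadjusted p under 0.05, and edgeR called 1 and DESeq2 2 lower. In mutant BAG against non-BAG the median was -0.72, edgeR called 0, DESeq2 called 1 higher and 1 lower, and 1 was above and 3 below at an unadjusted p under 0.05. Between the BAG groups 1 was above and 0 below at an unadjusted p under 0.05, and edgeR and DESeq2 called 0. The glyoxylate cycle gene icl-1 was 2111 and 608 (non-BAG), 465 and 218 (wild-type BAG) and 424 and 389 (mutant BAG), with -1.83 ± 0.54 (adjusted p = 0.0537, limma) in the wild type, and was called lower there without non-BAG replicate 2 or wild-type BAG replicate 1 (adjusted p = 0.00163 and 0.0431). Of the 9 molting genes limma called 0 in any comparison. In wild-type BAG against non-BAG their median was -0.55, with 0 above and 1 below at an unadjusted p under 0.05. There edgeR called 0 and DESeq2 called 1 lower. The largest falls were those of mlt-8 and mlt-10, at -1.55 ± 0.49 and -1.35 ± 0.61, and mlt-11 alone was above, at 0.65 ± 0.52. Without non-BAG replicate 2 the values of mlt-8 and mlt-10 were -2.17 and -2.13. The medians were 0.30 in mutant against wild-type BAG and -0.15 in mutant BAG against non-BAG. In these comparisons none was at an unadjusted p under 0.05, and edgeR and DESeq2 called 0. In the list of the X-chromosome signal and sex determination, fox-1, an RNA-binding signal element that acts beside sex-1, was 1279 and 608 (non-BAG), 2919 and 2563 (wild-type BAG) and 2249.7 and 2946 (mutant BAG). It rose by 1.63 ± 0.36 (adjusted p = 0.0146, limma) in wild-type BAG neurons and by 1.55 ± 0.36 (adjusted p = 0.0122, limma) in mutant BAG neurons, the first not past the threshold when wild-type BAG replicate 1 was left out (adjusted p = 0.072) and the second without either mutant library (adjusted p = 0.0622 and 0.133), while sex-1 itself did not pass. The second was 1.01 without non-BAG replicate 2. The male determining gene her-1 was 43.3 and 67 (non-BAG), 11.9 and 58.9 (wild-type BAG) and 10.8 and 3.45 (mutant BAG) and fell in mutant BAG neurons against non-BAG cells by a log2 value of -2.92 ± 0.80 (limma adjusted p = 0.0248), a call lost without either mutant library or non-BAG replicate 2 (adjusted p 0.051 to 0.181).

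Of 5 tested genes known to lie downstream of odr-7, fax-1 or unc-55, 1 rose in wild-type and 4 in mutant BAG neurons over non-BAG cells. Of all tested genes 10.2% and 16.2% rose. Among the 5, flp-1 and odr-10 are also the markers of AVK and AWA used above. The neuropeptide gene flp-13, held down by UNC-55 in motor neurons and also active in BAG, was 37.9 and 28.5 (non-BAG), 204 and 110.6 (wild-type BAG) and 359 and 379 (mutant BAG). Its groups stood in order without overlap, with rises of 2.16 ± 0.38 (adjusted p = 0.00456, limma) and 3.45 ± 0.38 (adjusted p = 0.000199, limma). The neuropeptide gene flp-1, which needs FAX-1 in the AVK interneurons, was 336 and 186 (non-BAG), 398 and 159 (wild-type BAG) and 824 and 1204 (mutant BAG). It rose in the mutant over non-BAG cells by 1.99 ± 0.46 (adjusted p = 0.0119, limma), and its value in mutant against wild-type BAG neurons was 1.98 ± 0.46 (adjusted p = 0.0795, limma). The glutamate receptor gene nmr-1, another gene downstream of fax-1, was 8.66 and 6.82 (non-BAG), 20.1 and 12.9 (wild-type BAG) and 38.8 and 60.9 (mutant BAG) and rose in the mutant over non-BAG cells by 2.51 ± 0.57 (adjusted p = 0.0106, limma). The diacetyl receptor gene odr-10, which needs ODR-7 in AWA, was 0 and 0 (non-BAG), 0 and 7.9 (wild-type BAG) and 17.2 and 28.7 (mutant BAG); it rose in the mutant over non-BAG cells (limma adjusted p = 0.0239). The calls of flp-1 and odr-10 in the mutant against non-BAG were lost without either mutant library (adjusted p 0.0545 to 0.17), that of odr-10 also without either non-BAG library (adjusted p = 0.0596 and 0.0571), and that of nmr-1 without mutant BAG replicate 2 (adjusted p = 0.12). Between the BAG groups flp-1 was called without either non-BAG library (adjusted p = 0.0324 and 0.0258). The genes fax-1 and odr-7 themselves did not pass in any comparison, as given above.

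**Figure D5:**
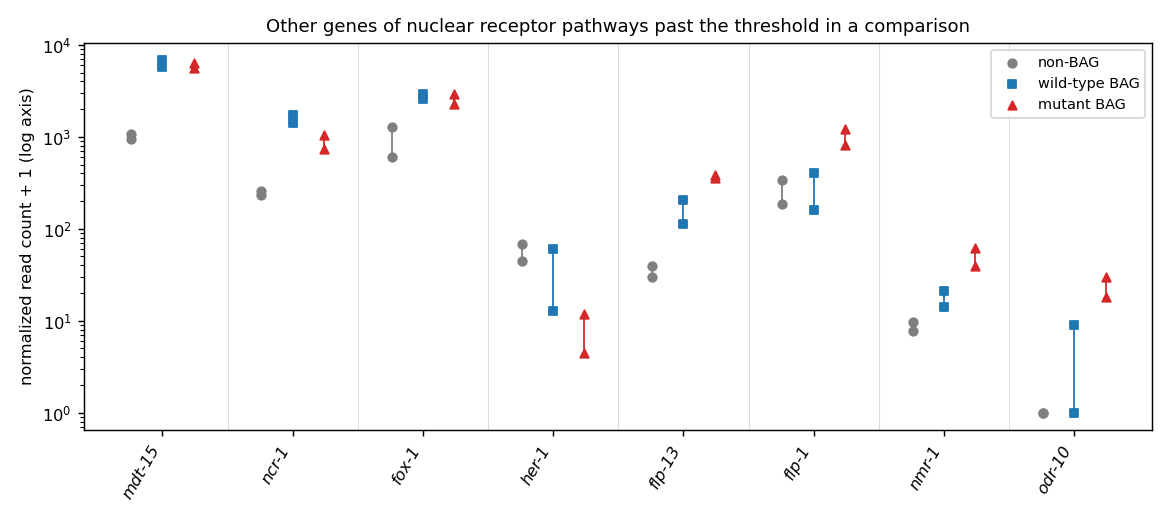
Normalized read count plus 1 (log axis) in each library for the 8 listed pathway genes past the threshold in at least 1 comparison; lines join the 2 libraries of a group. For mdt-15 the BAG libraries are at 5589 to 6798 and the non-BAG libraries at 944 and 1085, and flp-1 is highest in both mutant libraries.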

How the data were processed

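RNA from sorted cells was amplified and sequenced as paired-end reads, per the labels' protocols. STAR, HTSeq and DESeq2 are named in the submitters' processing notes, with no version; the genome build and the strand setting are not given in the sources used. The authors deposited 1 table of normalized signal, read counts divided by a size factor for each library. Whole reads were recovered from it: every value was a whole multiple of the value of 1 read within 0.01 read, and the recovered totals were 6181113 to 8596169 reads. Ribosomal RNA rows held 10.4% to 15.0% of reads and were kept.

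The 14211 genes that reached 10 in 2 or more libraries were tested two-sided on log2(value + 1) with limma 3.58.1 (mean-variance trend, R 4.3.3), 1 fit over the 3 groups of 2, with Benjamini-Hochberg adjustment over all tested genes. Other fits used the recovered reads with edgeR 4.0.16 (quasi-likelihood) or DESeq2 1.42.0, other pseudocounts, filters and scaling, a replicate block, only the groups compared, and 1 library left out; they are listed in the closing section. The procedure was tested on simulated data. Counting intervals (95%, exact) cover counting error only. The members and gene lists were chosen with earlier results of these data known. Named genes are every member past the threshold, the 5 members with other names, 15 conserved members, 9 HNF4-related members with studied roles, the 10 most abundant, and pathway genes past the threshold. Markers of other body parts were also counted: between the groups limma and edgeR called 0 of the tested hypodermis, intestine, pharynx and germline markers (DESeq2 called 1 hypodermis and 2 pharynx markers, and 1 and 3 had an unadjusted p under 0.05), and of 3 tested glial markers 1 rose and 1 fell in wild-type BAG and 1 rose in mutant BAG against non-BAG. Libraries of a group differed by more than sampling noise.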

Additional observations from a re-analysis of the deposited data

How the results depend on the processing

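In wild-type BAG against non-BAG, 19 members rose and 3 fell as reported; with the replicate block these were 29 and 6, with only the groups compared 10 rose, and with DESeq2 5 fell. Leaving out 1 library gave 7 to 25 higher and 0 to 5 lower. In mutant against wild-type BAG, 2 rose and 1 fell; 8 rose with a pseudocount of 8, 4 with a mean value of at least 50, 4 with TMM scaling and 5 with edgeR. The counts were 14 and 6 with the replicate block, 15 and 6 with only the groups compared and 15 and 5 with DESeq2, and leaving out 1 library gave 0 to 13 higher and 0 to 4 lower. In mutant BAG against non-BAG, 39 rose and 8 fell; 5 fell with a mean value of at least 50 and 15 with the replicate block, and leaving out 1 library gave 20 to 39 higher and 1 to 12 lower. Of the pathway genes, in wild-type BAG against non-BAG 1 fell with a mean value of at least 50, 2 with the replicate block, 1 with edgeR and 3 with DESeq2, where 0 did as reported, and leaving out 1 library gave 3 to 5 higher and 0 to 3 lower. In mutant against wild-type BAG 1 pathway gene rose with the replicate block, 1 with only the groups compared, 2 with DESeq2 and 0 to 1 with 1 library left out. In mutant BAG against non-BAG 0 pathway genes fell with a mean value of at least 50, 3 with the replicate block and 2 with DESeq2, and leaving out 1 library gave 3 to 8 higher and 0 to 4 lower. The cause of these changes was not tested, except that the stricter filter tests fewer genes and the fit without 1 library has fewer samples. No direction of a called value reversed in any alternative.

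TMM scaling moved the median of all tested genes in mutant against wild-type BAG from 0.02 to 0.12 and the share of higher among all called genes from 58.0% to 68.1%, and the members' median exceeded it by 0.14 under both scalings. The labels do not say that a replicate number marks a shared culture, and with 2 numbers the data cannot settle it: the deviations of replicate 1 from the group means correlated at 0.55 between non-BAG and wild-type BAG, 0.01 between non-BAG and mutant BAG and 0.15 between the BAG groups, over 7790 genes. With 2 libraries a group and 110 members below the filter, depth limits what can be seen of rare receptors.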

Other observations

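The 110 members that were not tested were also measured. Of these, 6 had no read in any library (nhr-75, nhr-80, nhr-108, nhr-223, nhr-244 and nhr-259), 26 reached a normalized read count of 10 in 1 library only and 78 had reads but never reached it. The highest single value was that of nhr-247, at 35.9 in wild-type BAG replicate 2, the library with high elt-1 and grd-10, and at 2.16 to 8.22 in the other 5 libraries. In the same library nhr-101 stood at 20.1, against 0 to 6.2 elsewhere, and nhr-76 at 15.1, against 1.08 to 7.44. The part of skin or pharynx cells in these values was not tested. Of the exon bases of nhr-101, 63.5% overlap the opposite-strand gene H12C20.7, which is not in the deposited table. Another 5.72% overlap the opposite-strand gene pms-2, at 448% of its own mean level, so the level of nhr-101 is uncertain. The gene nhr-263 was 9.75 and 21.1 (non-BAG), 8.22 and 7.18 (wild-type BAG) and 1.08 and 3.45 (mutant BAG), where the mutant libraries were the lowest. The gene nhr-188, from the same run of adjacent members as nhr-186, was 2.17 and 0, 1.83 and 0.718, and 9.7 and 14.9 in the same order.

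In wild-type BAG neurons over non-BAG cells 6 of 27 tested members on chromosome IV rose, 8 of 102 on V, 3 of 29 on X, 1 of 6 on II, 1 of 4 on III and 0 of 10 on I, where 10.2% of all tested genes rose. These counts were not tested against each other.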
